A study of Caenorhabditis elegans with 10 samples.

Results

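The genes described here activate fatty acids and break them down by beta-oxidation in Caenorhabditis elegans. They were taken by name as the acs, acdh, acox, cpt, ech, hacd, kat and maoc families together with dhs-28 and daf-22, using probe sets annotated with a single gene symbol. The rule found 61 genes of the 17118 with such a probe set on the array, each represented by its brightest probe set. The 61 comprised 23 acyl-CoA synthetases (acs), 20 genes of mitochondrial steps (6 cpt, 12 acdh, hacd-1 and kat-1), 8 genes of peroxisomal steps (5 acox, maoc-1, dhs-28 and daf-22) and 10 enoyl-CoA hydratase family genes (ech). This division followed gene names, so single acdh, cpt and ech products may reside elsewhere in the cell.

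Total RNA of whole adults was measured on 10 one-colour arrays, and the design crossed food with mutant strain. In the mek-1 strain there were 3 fasted and 3 fed arrays, and in the mlk-1 strain 2 fasted and 2 fed arrays. Animals were placed on fresh plates on adult day 2, fasted groups without and fed groups with the bacterial food OP50-1, and RNA was prepared on adult day 4. MLK-1 and MEK-1 are a MAP kinase kinase kinase and a MAP kinase kinase that act upstream of the JNK-type kinase KGB-1. All animals therefore carried a lesion in one of these kinase genes, the labels give no allele, and no wild type was analysed here, so a fasting effect below is one seen in mutants. Nothing in the labels says whether replicates were separate cultures, so each p-value measures the spread between these samples, which may be technical.

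Fatty acids enter catabolism once an acyl-CoA synthetase has joined them to coenzyme A. Carnitine palmitoyltransferases carry long chains into mitochondria, where an acyl-CoA dehydrogenase, an enoyl-CoA hydratase, a hydroxyacyl-CoA dehydrogenase and a ketoacyl-CoA thiolase act in turn to release acetyl-CoA. Peroxisomes run a parallel cycle that opens with an acyl-CoA oxidase and, in this worm, goes on with MAOC-1, DHS-28 and DAF-22. That peroxisomal cycle shortens very long chains and the side chains of the ascaroside pheromones. The intestine is a main site of fat storage and use in this animal, and the nuclear receptor NHR-49 is known to raise acs-2 in fasted wild-type worms.

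Array medians lay between 70.5 and 74.9 intensity units, over values bounded below at 16. The mek-1 transcript read 67.6, 66.5 and 72.5 on fasted and 128, 139 and 119 on fed arrays of the mek-1 strain. In the mlk-1 strain it read 1350.2 and 1387 fasted and 1138.5 and 1137.2 fed, far above every mek-1 array. The mlk-1 transcript lay between 128 and 232 on all 10 arrays, and where its probes lie relative to the lesion is not known. Array mek-1 fed 3 was low for the peroxisomal, mitochondrial and ech genes, with median deviations from each gene's mean of -0.40, -0.27 and -0.46 on the log2 scale. For acs-2 and acs-1, array mlk-1 fed 1 was closer than mlk-1 fed 2 to the values of fasted animals. Counts of calls, the peroxisomal median and the changes of several genes are given with and without some of these arrays. The change of acs-14 is given with all arrays only. Intensities of different probe sets are compared here only to choose each gene's probe set, to filter dim ones and in sums over lists. In those sums bright probe sets weigh most. Of the 61 genes, 10 stayed under 50 units on every array, which compresses any change they made.

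Fasting raised acs-2 and hacd-1 several-fold, raised 3 other genes less and lowered 2. Averaged over both strains, 7 of the 61 genes passed an adjusted p of 0.05 (limma, Benjamini-Hochberg over 22548 probe sets), or 11.5%, where the share among all tested probe sets was 7.90%. Those that rose were acs-2, hacd-1, acs-11, acs-19 and ech-7. The 2 that fell were acs-1 and acox-1.5 (3.28% of the 61, where 3.80% of all probe sets fell). The median change of the 61 was 0.05 on the log2 scale, close to the 0.04 of all genes. Fasted and fed arrays of equal replicate number were taken as pairs because their values deviated together. The sample titles give a number but state no pairing, so each result with the block rests on that inference. With the replicate number as a block 19 of the 61 passed, 10 higher and 9 lower, where the share of all probe sets was 20.0% (12.6% higher and 7.36% lower). Those 19 include the 7. The count without the block was 11 when mek-1 fed 3 was left out, 4 without mlk-1 fasted 1 and 13 without both mek-1 arrays numbered 3. In RNA of whole animals, fewer cells of a type and less RNA per cell cannot be told apart.

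**Figure D1:**
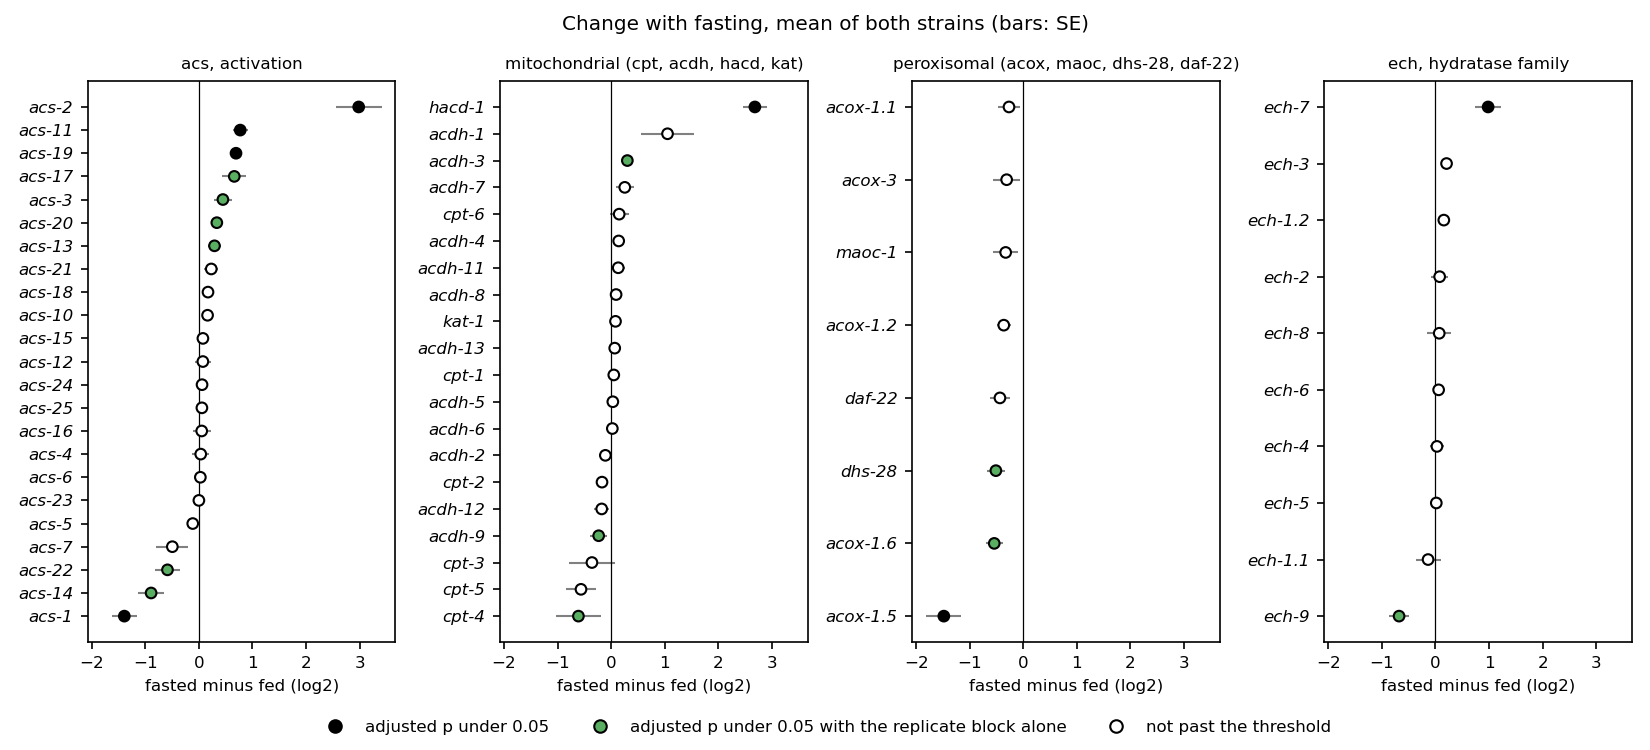
Log2 change with fasting (fasted minus fed, equal mean of the effects in both strains, x axis) of the 61 genes by family, with bars showing the standard error. Filled black points passed the threshold, green points passed it with the replicate block alone. The 8 peroxisomal genes all lie left of 0, while the mitochondrial genes lie on both sides of it, with hacd-1 farthest to the right.

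Among the synthetases, acs-2 showed the largest rise of all 61 genes. It encodes a mitochondrial acyl-CoA synthetase and is known as an NHR-49 target. Its intensity was 2321, 2702 and 2699.6 on fasted mek-1 arrays, against 306, 229.9 and 489.9 on fed mek-1 arrays. In the mlk-1 strain it was 2469 and 3125 fasted, against 793 and 125 fed. Fasted and fed arrays did not overlap in either strain, and the fed mlk-1 arrays differed more from each other than any other replicates of the gene. The mean rise was 2.98 ± 0.43 (log2, SE; 95% interval 2.02 to 3.95; adjusted p = 0.00395, limma), a 7.90-fold change on the scale with the constant of 16. Within mek-1 the rise was 2.92 ± 0.54 (adjusted p = 0.0184, limma). Within mlk-1 it was 3.05 ± 0.66 (adjusted p = 0.0732, limma), which passed with the replicate block (adjusted p = 0.0267). Without mlk-1 fed 1 the mean rise was 3.61, and without mlk-1 fed 2 it was 2.35. The call within mek-1 was lost without any 1 of mek-1 fasted 1, mek-1 fasted 2, mek-1 fed 1 and mek-1 fed 2, with an adjusted p of 0.0530 to 0.0692. A second probe set of acs-2 rose by 3.69 ± 0.56 (adjusted p = 0.00526, limma).

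Smaller rises were seen in acs-19, which encodes an acetyl-CoA synthetase, and in acs-11, another member of the synthetase family. In mek-1 animals acs-19 read 2805, 2858 and 2505 fasted, against 1618, 1808 and 1456 fed. In mlk-1 animals it read 2721 and 2541 fasted, against 1732 and 1621 fed. Every fasted array lay above every fed array of either strain. The mean rise of acs-19 was 0.69 ± 0.08 (adjusted p = 0.000948, limma), with 0.74 ± 0.10 in mek-1 (adjusted p = 0.00335) and 0.64 ± 0.12 in mlk-1 (adjusted p = 0.0373). The mlk-1 call was lost without any 1 of mek-1 fed 1, mek-1 fasted 1, mek-1 fasted 2 and the 4 mlk-1 arrays, where the adjusted p reached 0.237. It was also lost with a constant of 1, with median centring and with the compared groups alone. Without _s_at and _x_at probe sets hacd-1 was the only gene that passed in mlk-1. For acs-11 the fasted mek-1 arrays gave 280.1, 255 and 192 and the fed mek-1 arrays 136, 136 and 93.8. Fasted mlk-1 arrays gave 264 and 212, against 136 and 158 on fed mlk-1 arrays. The gene was higher in all 5 pairs of equal number, by 0.77 ± 0.14 on average (adjusted p = 0.0109, limma). That call was lost without mlk-1 fasted 1 (adjusted p = 0.0536), and the call within mek-1 (0.90 ± 0.17, adjusted p = 0.0215) without mek-1 fasted 1 (0.0952) or mek-1 fasted 2 (0.0878) and with the compared groups alone (0.0630).

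The gene acs-1, whose product activates monomethyl branched-chain fatty acids, went the other way. Fasted mek-1 arrays read 359, 389 and 393, against 1333, 1318 and 1569 on fed mek-1 arrays. Fasted mlk-1 arrays read 258 and 335, against 353 and 951 on fed mlk-1 arrays. The mek-1 groups were well apart, while mlk-1 fed 1 lay barely above the fasted mlk-1 arrays. The mean fall was -1.39 ± 0.23 (adjusted p = 0.00795, limma). In mek-1 it was -1.84 ± 0.29 (adjusted p = 0.00913, limma), a call kept under all 24 alternatives tried. In mlk-1 it was -0.94 ± 0.36 (adjusted p = 0.316, limma), which passed with the replicate block (adjusted p = 0.0469). Without mlk-1 fed 1 the mlk-1 change was -1.64 (adjusted p = 0.00401) and without mlk-1 fed 2 it was -0.25. A second probe set of acs-1 changed by -1.38 ± 0.18 (adjusted p = 0.00247, limma).

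The other 19 synthetases did not pass, with mean changes between -0.89 (acs-14) and 0.66 (acs-17). The median of all 23 was 0.07, and 9 of the 23 were higher in 5 of 5 pairs of equal number (20.2% of all probe sets were). Of the 23, 4 passed, or 17.4%, where 7.90% of all probe sets were called. With the replicate block 10 of the 23 passed, or 43.5%, where 20.0% of all probe sets did. Those that the block added were acs-17 (0.66), acs-3 (0.45), acs-20 (0.33) and acs-13 (0.29), all higher, and acs-14 (-0.89) and acs-22 (-0.59), both lower. A second probe set of acs-13 changed by only 0.07 ± 0.21 (adjusted p = 0.891, limma without the block). Second probe sets of acs-17 and acs-20 changed by 0.59 ± 0.24 and 0.24 ± 0.08 (adjusted p = 0.196 and 0.105, limma without the block). The products of acs-20 and acs-22 resemble the fatty acid transport proteins of mammals. The values of acs-14 were 429, 329.6 and 336 in fasted mek-1, against 846, 604 and 317 in fed mek-1. In mlk-1 they were 265 and 256 fasted, against 721 and 539 fed. Array mek-1 fed 3 thus lay below the fasted mek-1 arrays, and the other fed arrays lay above all fasted ones. For acs-22 the fasted arrays were lower in 5 of 5 pairs, by 0.41 to 0.79 on the log2 scale, although the mek-1 groups overlapped.

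**Figure D2:**
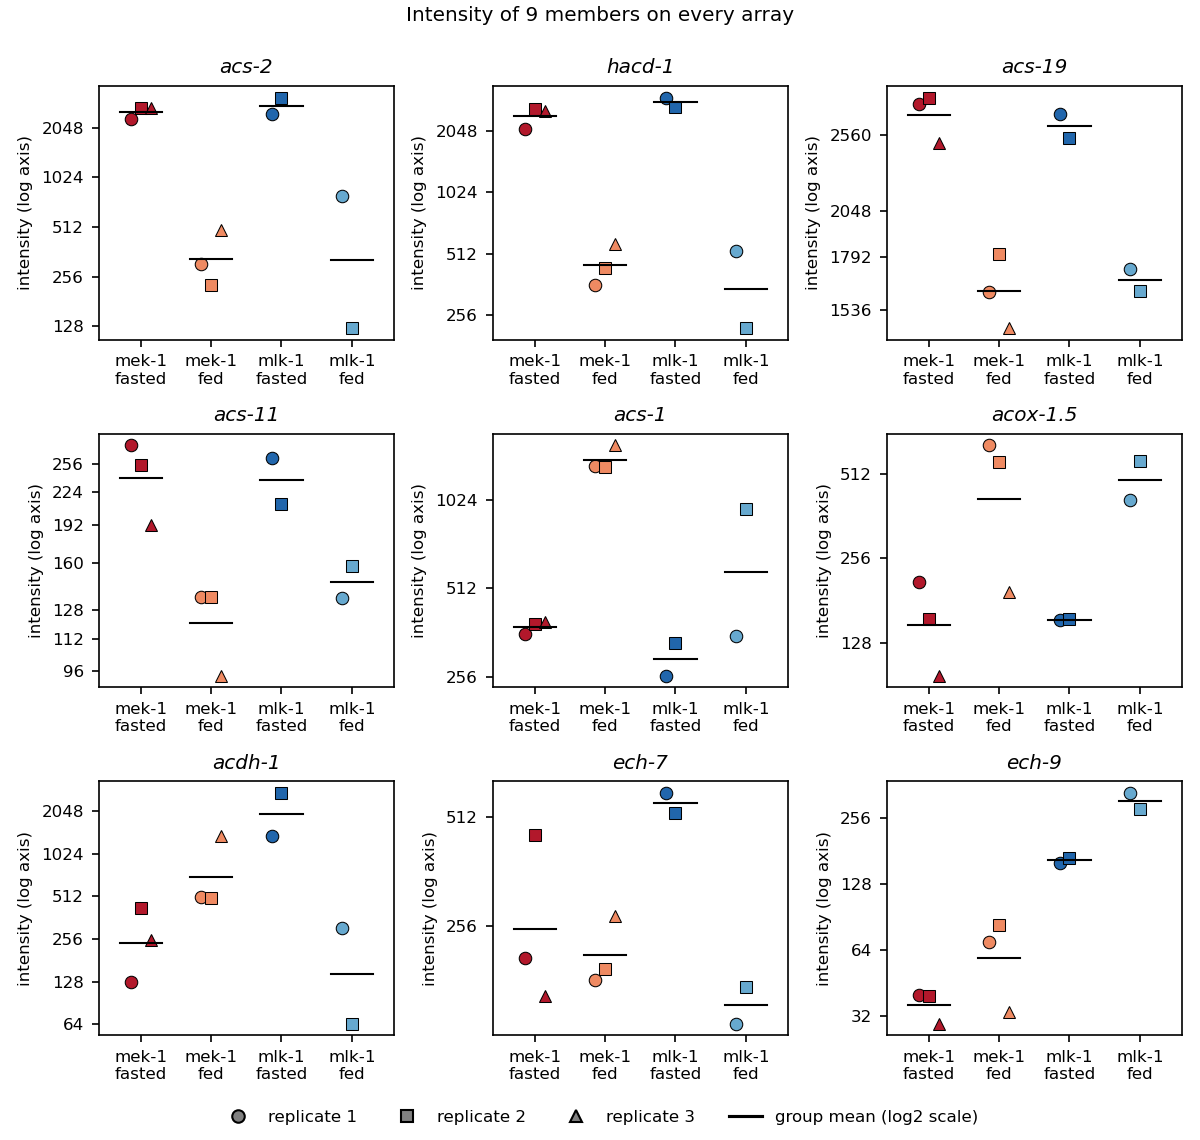
Intensity of 9 genes on each of the 10 arrays (log y axis), by strain and food, with the symbol showing the replicate number and the line the group mean on the log2 scale. Fasted arrays lie above fed ones for acs-2, hacd-1, acs-19 and acs-11 in both strains, whereas acdh-1 is lower in fasted mek-1 and higher in fasted mlk-1 animals.

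Of the 20 mitochondrial genes, 1 rose and the rest did not pass, a share of 5% where 7.90% of all probe sets were called. With the replicate block 4 of the 20 passed, 2 higher and 2 lower, where 20.0% of all probe sets did. The gene that rose without the block was hacd-1, a hydroxyacyl-CoA dehydrogenase of the last-but-one step of the cycle. Fasted mek-1 arrays gave 2096, 2617 and 2563, against 361, 436 and 575 on fed mek-1 arrays. Fasted mlk-1 arrays gave 2975 and 2684, against 529 and 221 on fed mlk-1 arrays. No fasted array came near a fed one in either strain, and the fasted mlk-1 arrays lay above the fasted mek-1 arrays. The mean rise was 2.68 ± 0.22 (95% interval 2.18 to 3.19; adjusted p = 0.000182, limma), or 6.42-fold. It was 2.38 ± 0.28 in mek-1 (adjusted p = 0.00196) and 2.98 ± 0.34 in mlk-1 (adjusted p = 0.00354), and all 3 of these calls held under each of 24 alternatives. Without the replicate block, hacd-1 and acs-19 were the only ones of the 61 genes that passed in each strain taken singly. The mlk-1 call of acs-19 was lost under the alternatives given above, and with the block further genes passed in both strains.

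Genes of other mitochondrial steps changed by much less than hacd-1 and did not pass. Carnitine palmitoyltransferase cpt-1, whose class acts at the outer mitochondrial membrane, read 917, 1029 and 988 in fasted mek-1, against 888, 1024 and 701 in fed mek-1. In mlk-1 it read 969 and 955 fasted, against 931 and 1109.7 fed. Its mean change was 0.05 ± 0.11 (95% interval -0.19 to 0.29; adjusted p = 0.850, limma), and the sign turned with array weights, when mek-1 fed 3, mlk-1 fed 1 or both mek-1 arrays numbered 3 were left out. For cpt-2, of the inner membrane, the fasted mek-1 arrays read 629, 751 and 634, against 849, 896 and 604 on fed mek-1 arrays. The mlk-1 arrays read 723 and 640.3 fasted, against 759.8 and 739.9 fed, and the mean change was -0.17 ± 0.12 (95% interval -0.43 to 0.09; adjusted p = 0.462, limma). The groups of both genes overlapped in mek-1, and those of cpt-1 also in mlk-1. The thiolase kat-1, which cleaves the shortened chain, read 965, 957 and 932 in fasted mek-1, against 926, 885 and 884 in fed mek-1. In mlk-1 it read 904 and 791 fasted, against 778 and 817 fed. The change of kat-1 was 0.08 ± 0.06 (95% interval -0.05 to 0.21; adjusted p = 0.475, limma). The intervals of cpt-1, cpt-2 and kat-1 hold no change as large as those of hacd-1 or acs-2.

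The 6 cpt genes had a median change of -0.26 and the 12 acdh genes one of 0.08. In either family 0 passed the threshold (limma; at an unadjusted p under 0.05, 0 cpt genes and 1 acdh gene), where 7.90% of all probe sets were called. With the replicate block 1 of the 6 cpt and 2 of the 12 acdh genes passed, where 20.0% of all probe sets did. The lowest cpt values were those of cpt-3 (-0.36), cpt-5 (-0.56) and cpt-4 (-0.61, adjusted p = 0.0237 with the block). The acyl-CoA dehydrogenase acdh-3 was a little higher in the fasted array of all 5 pairs, with 2591, 2346 and 2197 in fasted mek-1, against 1999, 1918 and 1664 in fed mek-1. In mlk-1 it had 2334 and 2100.4 fasted, against 1949 and 1763 fed, without overlap in either strain. Its mean change of 0.30 ± 0.08 had an adjusted p of 0.0513 (limma), and of 0.00719 with the replicate block. Over all 20 mitochondrial genes the median change was 0.06, with 13 above 0 and 7 below, where 10597 of 17118 genes lay above 0.

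Enoyl-CoA hydratase genes are told by name as 1 family, although members of both organelles belong to it. ech-7 passed with 209, 456 and 164 on fasted mek-1 arrays, against 182, 196 and 273 on fed mek-1 arrays. Its fasted mlk-1 arrays read 596 and 523, against 138 and 174 on fed mlk-1 arrays. The mek-1 groups overlapped and the mlk-1 groups were far apart. The mean change of ech-7 was 0.98 ± 0.25 (adjusted p = 0.0461, limma), made of 0.22 ± 0.32 in mek-1 (adjusted p = 0.793) and 1.75 ± 0.39 in mlk-1 (adjusted p = 0.0803, and 0.0366 with the block). The mean call was lost with a constant of 64 (adjusted p = 0.0646) and without any 1 of mek-1 fasted 1, mek-1 fed 1, mek-1 fed 2 and the 4 mlk-1 arrays, where the adjusted p was 0.0780 to 0.151. The short-chain hydratase ech-6 read 1527, 1585 and 1419 in fasted mek-1, against 1616, 1560.2 and 1629.9 in fed mek-1. In mlk-1 ech-6 read 1784 and 1808 fasted, against 1623 and 1493 fed, a mean change of 0.06 ± 0.06 (95% interval -0.07 to 0.19; adjusted p = 0.622, limma) whose sign turned with quantile normalization. The remaining hydratase genes lay between -0.68 (ech-9) and 0.21 (ech-3).

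The peroxisomal genes had lower group means in fasted than in fed animals of both strains. All 8 had a negative mean change, from -0.27 (acox-1.1) to -1.48 (acox-1.5), and all 8 were negative in each strain. Of 17118 genes, 6521 had a negative mean change, 6649 a negative one in mek-1 and 6946 in mlk-1. The 8 genes share the same arrays and are not independent, and their array medians had a pooled SD within groups of 0.376. Without _s_at and _x_at probe sets 4 peroxisomal genes were measured, with a median of -0.346. The median of all 8 was -0.40, against 0.06 for the mitochondrial genes and 0.04 for all genes on the array. Within strains the peroxisomal median was -0.34 in mek-1 and -0.52 in mlk-1. Only acox-1.5 passed the threshold in the mean of strains, 1 of 8 or 12.5%, where 3.80% of all probe sets were called lower. With the replicate block dhs-28, acox-1.6 and acox-1.5 passed, 3 of 8 or 37.5%, where 7.36% of all probe sets were called lower.

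The pairs of equal number were not all alike. In mek-1 pairs 1 and 2 and in mlk-1 pairs 1 and 2, the fasted array was lower for 8 of 8 peroxisomal genes, with pair medians of -0.53, -0.50, -0.66 and -0.33. In mek-1 pair 3 only 4 of 8 were lower, with a median of 0.16. The exception goes with array mek-1 fed 3, on which maoc-1, acox-3, acox-1.1 and daf-22 read lower than on mek-1 fasted 3. Of the 8 genes, 4 were lower in 5 of 5 pairs (acox-1.2, acox-1.5, acox-1.6 and dhs-28), where 9.40% of all probe sets were. The other 4 were lower in 4 of 5 pairs, while 21.8% of all probe sets were lower in at least 4 of 5 pairs. Without mek-1 fed 3 the median was -0.52, without both mek-1 arrays numbered 3 it was -0.50, and without mlk-1 fed 1 it was -0.31. The pair medians of the mitochondrial genes lay between -0.07 and 0.11.

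**Figure D3:**
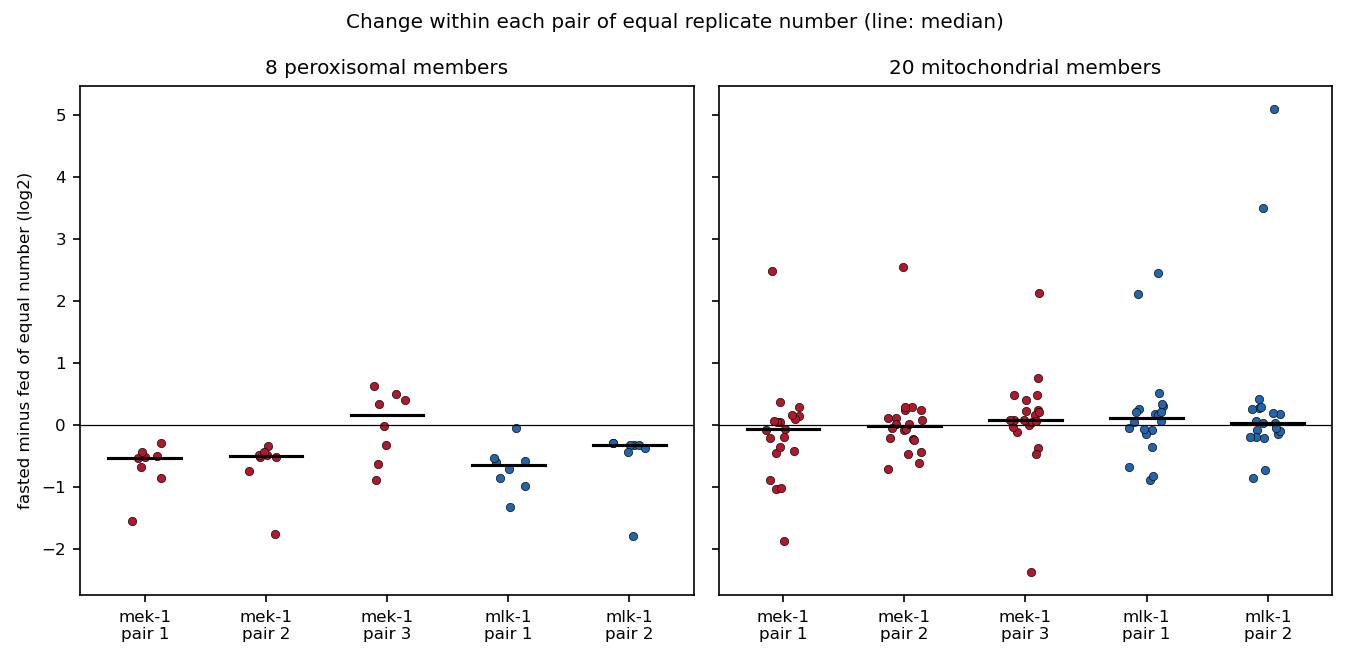
Log2 change between the fasted and the fed array of equal replicate number (y axis) for the 8 peroxisomal (left) and 20 mitochondrial genes (right) in each of the 5 pairs, with a line at the median. All 8 peroxisomal genes lie below 0 in 4 pairs, 4 of them lie above 0 in mek-1 pair 3, and the mitochondrial medians lie between -0.07 and 0.11.

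Acyl-CoA oxidases catalyse the opening step of the peroxisomal cycle, and acox-1.5 gave the largest fall. Fasted mek-1 arrays read 211, 155 and 97.2, against 651, 565 and 195 on fed mek-1 arrays. Fasted mlk-1 arrays read 155 and 155, against 414 and 574 on fed mlk-1 arrays. Every pair was lower when fasted, and the low fed value of mek-1 fed 3 made the mek-1 groups overlap. The mean fall was -1.48 ± 0.33 (95% interval -2.23 to -0.74; adjusted p = 0.0285, limma). The call was lost without any 1 of mek-1 fed 2, mek-1 fasted 2 and the 4 mlk-1 arrays, with an adjusted p of 0.0526 to 0.104, and the block gave 0.000462. Within strains the change of acox-1.5 was -1.40 ± 0.42 in mek-1 (adjusted p = 0.107, block 0.00215) and -1.56 ± 0.51 in mlk-1 (adjusted p = 0.235, block 0.00721). Without _s_at and _x_at probe sets the only gene that passed as lower in the mean of strains was acs-1, so the acox-1.5 call has no support there.

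None of the other oxidases passed. acox-1.1, an oxidase of ascaroside side-chain shortening, read 199.7, 170.3 and 212 in fasted mek-1, against 295, 219.6 and 132 in fed mek-1. In mlk-1 it read 173 and 132 fasted, against 266 and 170.2 fed, and the mean change was -0.27 ± 0.21 (adjusted p = 0.530, limma). Leaving out each array in turn moved that change between -0.42 and -0.12. acox-1.6 changed by -0.54 ± 0.16 (adjusted p = 0.0722, limma, and 0.00537 with the block), and was lower in 5 of 5 pairs. acox-1.2 changed by -0.36 ± 0.13 (adjusted p = 0.143, limma) without overlap between fasted and fed arrays in either strain. A probe set shared by acox-1.3 and acox-1.4, outside the 61 because it names both genes, changed by -0.57 ± 0.16 (adjusted p = 0.0615, limma). In mek-1 alone that shared probe set fell by 1.09 ± 0.20 (adjusted p = 0.0182, limma), and in mlk-1 its change was -0.06 ± 0.25 (adjusted p = 0.974).

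The 3 later enzymes of the cycle had negative mean changes that did not pass. maoc-1, the hydratase, had 795, 651 and 662 in fasted mek-1, against 1289, 888 and 500.3 in fed mek-1. In mlk-1 it had 873 and 756 fasted, against 1275 and 926 fed. Its mean change was -0.33 ± 0.23 (95% interval -0.85 to 0.19; adjusted p = 0.476, limma). dhs-28, the hydroxyacyl-CoA dehydrogenase, had 957, 687 and 813 in fasted mek-1, against 1370.5, 969.6 and 1026 in fed mek-1. Its mlk-1 arrays read 858 and 653 fasted, against 1421 and 894 fed. The dhs-28 groups overlapped in neither strain, and its mean change of -0.51 ± 0.17 had an adjusted p of 0.102 (limma), or 0.0021 with the block. daf-22, the thiolase that ends the cycle, read 629, 465 and 589 in fasted mek-1, against 861, 676 and 464 in fed mek-1. The mlk-1 arrays of daf-22 read 513 and 502 fasted, against 1034 and 635 fed, and the mean change was -0.44 ± 0.19 (adjusted p = 0.218, limma). For maoc-1 and daf-22, mek-1 fed 3 had the lowest value of the mek-1 arrays. Leaving out each array in turn moved the mean change between -0.51 and -0.17 for maoc-1 and between -0.61 and -0.26 for daf-22.

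Markers of several tissues were also lower in fasted animals. Of 12 intestine markers, 6 fell, 0 rose and the median was -0.81, where 3.80% of all probe sets fell. With the replicate block 9 of 12 intestine, 7 of 10 body wall muscle and 5 of 7 hypodermis markers fell, where 7.36% of all probe sets did. The summed intensity of the intestine markers was 6082 to 8946 in fasted mek-1, against 14850 to 19740 in fed mek-1. In mlk-1 that sum was 8655 to 8806 fasted, against 19290 to 22730 fed. Summed peroxisomal intensity was 2944 to 3850.0 in fasted mek-1, against 3051 to 6009 in fed mek-1, and 2895 to 3478 in fasted mlk-1, against 4069 to 5804 in fed mlk-1. Body wall muscle markers fell in 4 of 10 (sums of 1960 to 3228 in fasted mek-1, against 3670 to 9594 in fed mek-1, and 1880 to 2118 in fasted mlk-1, against 2696 to 2964 in fed mlk-1). Within mek-1 4 of the 10 fell (median -1.05), where 3.23% of all probe sets did. Within mlk-1 0 passed (limma; 0 at an unadjusted p under 0.05), with a median of -0.41. With the block 8 fell in mek-1 and 1 in mlk-1, where 14.5% and 5.84% of all probe sets were called. The difference between strains called 0 of the 10 (limma). Hypodermis markers fell in 2 of 7 (sums of 5477 to 12300 in fasted mek-1, against 11620 to 17380 in fed mek-1, and 5931 to 6397 in fasted mlk-1, against 8812 to 13930 in fed mlk-1). Of 12 germline markers 0 passed (limma; 1 at an unadjusted p under 0.05), with a median of 0.05. In the early embryo list 1 of 10 fell, in the yolk list 1 of 5, and in the list of males and sperm 0 of 6 passed (limma; 0 at an unadjusted p under 0.05). The early embryo median was 0.08. With the replicate block 3 early embryo markers rose and 1 fell, and 1 germline marker rose, where 12.6% of all probe sets rose. The block left 1 yolk marker lower and 0 markers of males and sperm called. No intestine marker was at the floor of 16 on any array. The part of these shifts in the changes of the fatty acid genes, higher or lower, was not tested.

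The next comparison asked whether the fasting response differed between the strains. The test of the difference (effect in mek-1 minus effect in mlk-1) called 0 of the 61 genes (limma, and 0 with the block; 4 at an unadjusted p under 0.05, namely acdh-1, ech-7, acdh-2 and ech-6), where 0.0754% of all probe sets were called, and 0.222% with the block. A second probe set of acdh-2 gave a difference of only -0.03 ± 0.15. Counted strain by strain, 5 genes passed in mek-1 (8.20%, where 4.54% of all probe sets were called), 4 higher and 1 lower, where 1.31% of all probe sets were higher and 3.23% lower. In mlk-1 2 passed (3.28%, where 1.37% of all were called), both higher, where 0.519% of all were higher. With the block these counts were 14 and 13, where the shares of all probe sets were 14.5% and 5.84%. Fasted and fed arrays did not overlap in the same direction in both strains for 10 of the 61, 7 higher and 3 lower. That is 16.4%, where the share over all probe sets was 12.4% (7.48% higher and 4.93% lower). The 7 higher genes were acs-2, acs-11, acs-19, acs-17, acs-18, hacd-1 and acdh-3, and the 3 lower ones acs-1, acox-1.2 and dhs-28.

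**Figure D4:**
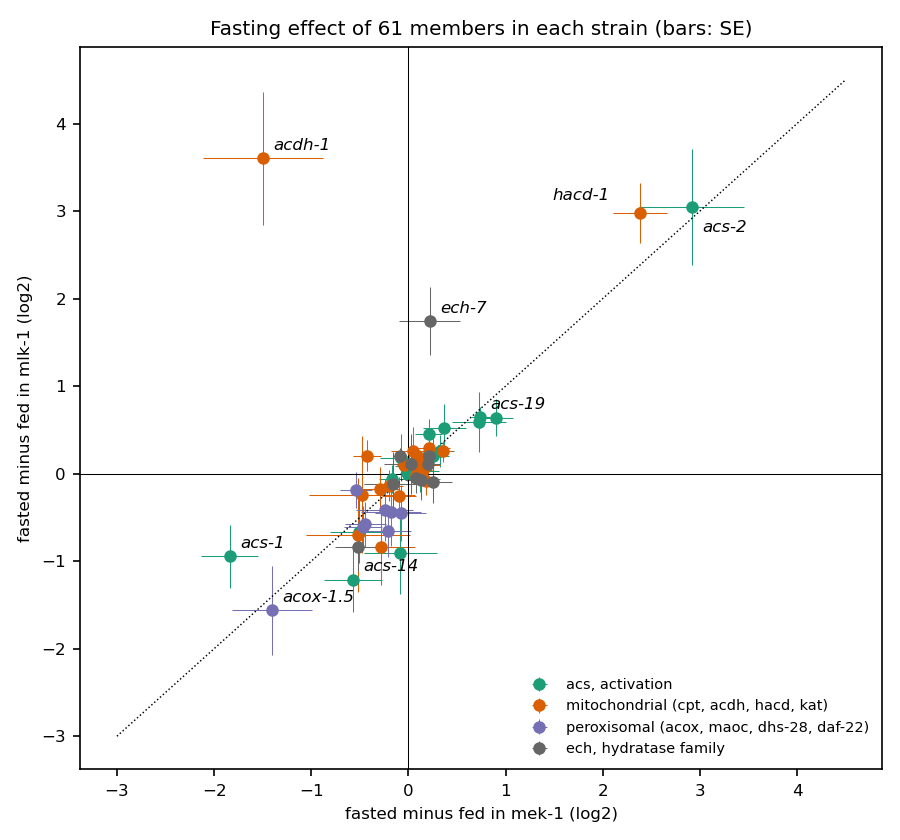
Log2 change with fasting in mek-1 (x axis) and in mlk-1 animals (y axis) for the 61 genes, coloured by family, with standard errors as bars and a dotted line at equal change. The genes farthest from the line are acdh-1, at -1.50 in mek-1 and 3.60 in mlk-1, and ech-7, at 0.22 in mek-1 and 1.75 in mlk-1.

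The gene farthest from equal change was acdh-1, an acyl-CoA dehydrogenase known for its part in a propionate breakdown route that worms use when vitamin B12 is scarce. Fasted mek-1 arrays gave 126, 423 and 249, against 507, 501 and 1359.9 on fed mek-1 arrays. Fasted mlk-1 arrays gave 1364 and 2744, against 304 and 64.6 on fed mlk-1 arrays. Fasted values were below all fed values in mek-1 and above both in mlk-1, the only one of the 61 genes with such an opposite separation, which 1.01% of all probe sets showed. The change was -1.50 ± 0.62 in mek-1 (adjusted p = 0.242, limma) and 3.60 ± 0.76 in mlk-1 (adjusted p = 0.0668, and 0.0296 with the block). The difference was -5.10 ± 0.98 (95% interval -7.33 to -2.87; adjusted p = 0.28, limma, and 0.115 with the block). Without mlk-1 fed 1 the mlk-1 change was 4.60 (adjusted p = 0.0351), and without mlk-1 fed 2 it was 2.61 (adjusted p = 0.287). In fed animals acdh-1 was 2.16 ± 0.70 higher in mek-1 than in mlk-1 (adjusted p = 0.325), and in fasted animals the strain difference was -2.94 ± 0.70 (adjusted p = 0.0951).

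Between strains at equal food, 1 of the 61 genes passed in fed animals (1.64%, where 0.603% of all probe sets were called) and 1 in fasted animals (1.64%, where 1.46% were called). It was the same gene, ech-9, whose product resembles the peroxisomal bifunctional enzyme. Fasted arrays read 40.2, 39.5 and 29.7 in mek-1, against 159 and 168 in mlk-1. Fed arrays read 69.9, 83.3 and 33.6 in mek-1, against 331 and 279.9 in mlk-1. Each mek-1 array was below each mlk-1 array, fed or fasted. The difference (mek-1 minus mlk-1) was -1.78 ± 0.25 in fasted animals (adjusted p = 0.0156, limma) and -2.09 ± 0.25 in fed animals (adjusted p = 0.00834, limma). The fasted call was lost without any 1 of mek-1 fasted 1, mek-1 fasted 3, mlk-1 fasted 1 and mlk-1 fasted 2 (adjusted p of 0.0546 to 0.156). The fed call was lost without mlk-1 fed 1 (0.0859) or mlk-1 fed 2 (0.0646) and with the compared groups alone (0.136). The fasted array was lower for ech-9 in all 5 pairs, with a mean change of -0.68 ± 0.18 (adjusted p = 0.0537, limma, and 0.00554 with the block).

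Lists of genes that work beside beta-oxidation held a few calls each or none. Of 11 genes listed for propionate breakdown 1 passed, where 7.90% of all probe sets were called, and the list median was 0.17. With the replicate block 4 of the 11 passed, all higher, where 12.6% of all probe sets were called higher. The list also holds metr-1 and mtrr-1, which belong to the methionine cycle and not to propionate breakdown itself. Both were among the 4, beside pcca-1 and pccb-1. The gene that passed without the block was pcca-1, a subunit of propionyl-CoA carboxylase, which rose. Its values were 3155, 2765 and 2705 in fasted mek-1, against 2369, 1994 and 1861 in fed mek-1, and 2606 and 2715 in fasted mlk-1, against 1875 and 2042 in fed mlk-1. The rise of pcca-1 was 0.46 ± 0.08 (adjusted p = 0.0125, limma), lost without mlk-1 fed 1 (0.0516) or mlk-1 fasted 2 (0.0637). Of 10 measured carnitine, acyl-CoA binding and electron transfer partners 1 passed, where 7.90% of all probe sets were called. It was the acyl-CoA binding protein gene acbp-3, which fell by 1.29 ± 0.24 (adjusted p = 0.0145, limma; 0.0633 without mlk-1 fed 2). With the replicate block 2 of the 10 passed, 1 higher and 1 lower, where 20.0% of all probe sets did.

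Of 11 peroxisome assembly genes (prx) 0 passed (limma; 2 at an unadjusted p under 0.05), and their median was -0.06. With the replicate block 2 of 11 passed, where 20.0% of all probe sets did. They were prx-19 as higher (0.26, adjusted p = 0.0335) and prx-11 as lower (-0.53, adjusted p = 0.0478, and 0.057 without the block). The prx-11 change passed under 9 of 24 alternatives. Of 5 measured peroxisomal transporters and catalase, the ABC transporter gene pmp-1 fell and pmp-5 rose, where 7.90% of all probe sets were called. The intensity of pmp-1 was 260.4, 204 and 193 in fasted mek-1, against 444, 439 and 349.8 in fed mek-1, and 162 and 172 in fasted mlk-1, against 340.3 and 331 in fed mlk-1. The fall of pmp-1 was -0.90 ± 0.10 (adjusted p = 0.000948, limma) and held under 23 alternatives. It passed in mek-1 (adjusted p = 0.00612) and in mlk-1 (adjusted p = 0.0225), the second lost without any 1 of the 4 mlk-1 arrays (up to 0.172). The intensity of pmp-5 was 150.5, 208 and 211 in fasted mek-1, against 165, 149 and 181 in fed mek-1, and 466 and 547 in fasted mlk-1, against 199 and 145 in fed mlk-1. Its mean change of 0.83 ± 0.12 (adjusted p = 0.00473, limma) combined 0.17 ± 0.15 in mek-1 (adjusted p = 0.637) and 1.48 ± 0.19 in mlk-1 (adjusted p = 0.00589). The mlk-1 call of pmp-5 was lost without mlk-1 fasted 2 (0.0770) or mlk-1 fed 2 (0.0569), and the test of the difference between strains gave -1.31 ± 0.24 (adjusted p = 0.232, limma). In fasted animals pmp-5 was lower in mek-1 than in mlk-1, by -1.35 ± 0.17 (adjusted p = 0.0101, limma), a call lost without mlk-1 fasted 1 or mlk-1 fasted 2 (up to 0.123).

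Among 15 regulators of fat use, 3 rose and 0 fell, with a list median of 0.14, where 7.90% of all probe sets were called. With the replicate block 6 of 15 passed, 5 higher and 1 lower, where 20.0% of all probe sets did. The lower one was nhr-80, a nuclear receptor gene named here after its values were seen (-0.25, adjusted p = 0.0947, limma, and 0.0311 with the block). In mek-1 alone nhr-80 fell by 0.43 (adjusted p = 0.0441, limma), a call kept under 9 of 23 alternatives and lost without any 1 array other than mek-1 fed 2. The nuclear receptor genes nhr-114 and nhr-10 changed by 0.48 ± 0.10 (adjusted p = 0.0206, limma) and 0.45 ± 0.08 (adjusted p = 0.00953, limma). The gene of the AMP-activated kinase subunit aak-2 changed by 0.43 ± 0.10 (adjusted p = 0.0315, limma). The aak-2 call was lost with the mean of its probe sets (0.0926) and without any 1 of mek-1 fasted 1, mek-1 fasted 2 and the 4 mlk-1 arrays (up to 0.129). Without mlk-1 fasted 2 the adjusted p of nhr-10 was 0.0506, and nhr-114 was lost without mek-1 fasted 1, mlk-1 fed 2, mlk-1 fasted 1 or mlk-1 fasted 2 (up to 0.0782). The receptor gene nhr-49 itself changed by 0.19 ± 0.09 (adjusted p = 0.283, limma, and 0.0484 with the block). The largest mean change of the list was that of hlh-30 (0.68, adjusted p = 0.0575, limma). It passed under 10 of 24 alternatives, the block among them.

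**Figure D5:**
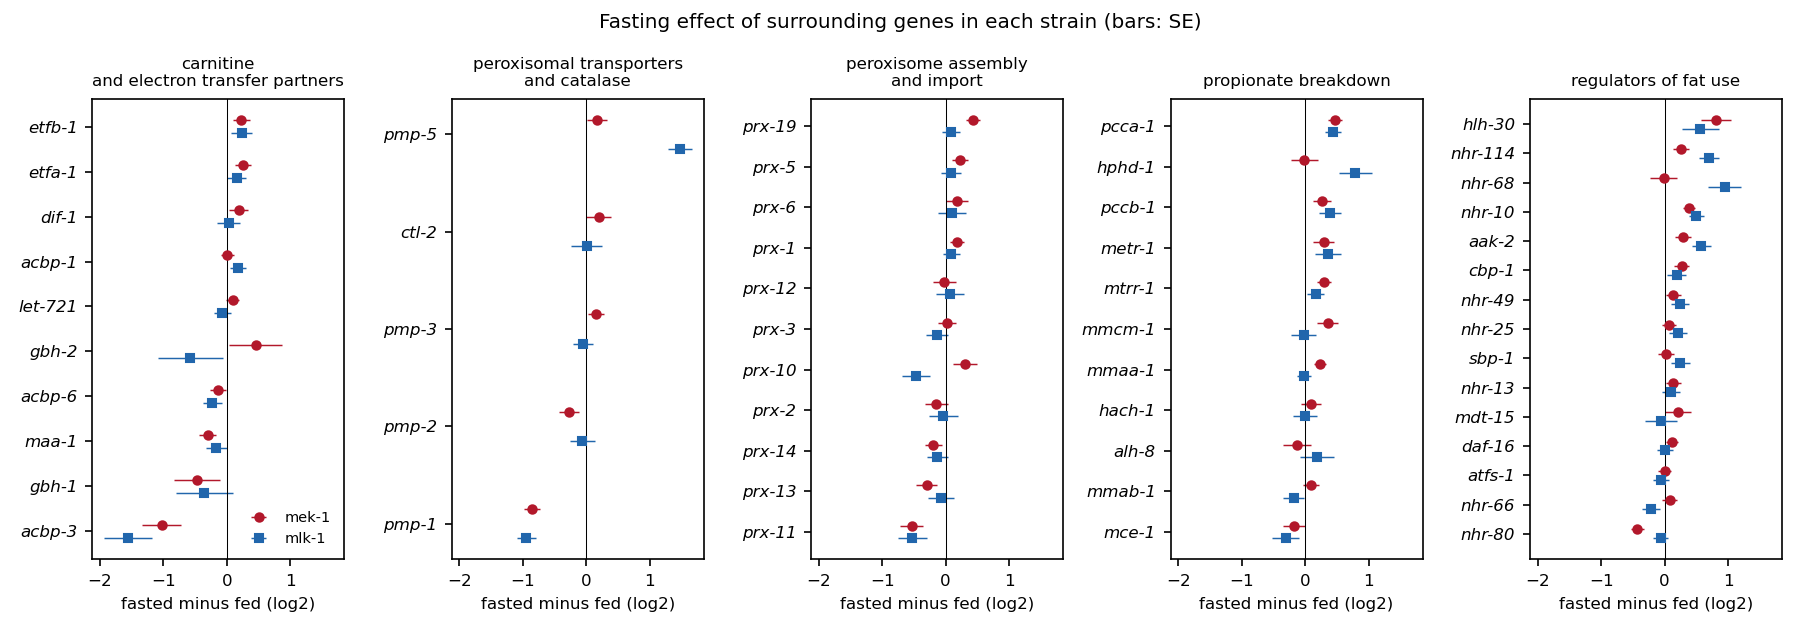
Log2 change with fasting (x axis) in mek-1 (circles) and mlk-1 animals (squares) for the 5 lists of genes around beta-oxidation, with standard errors as bars. pmp-1 lies at -0.86 in mek-1 and -0.94 in mlk-1, whereas pmp-5 lies at 0.17 in mek-1 and 1.48 in mlk-1.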

How the data were processed

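The deposited table gives the authors' summarised intensity of each probe set on each array, on a linear scale. The labels' protocols give Trizol extraction of RNA and biotin labelling by 3' in vitro transcription. The summary and normalization methods are not given in the sources used here. Of 22625 probe sets, 77 controls were left out, and 0 columns lacked a sample. Symbols came from the platform annotation: 20766 probe sets carried 1 symbol, 887 several and 895 none. All 61 genes matched RefSeq gene records, 11 had more than 1 probe set, and 23 were represented by a probe set (_s_at or _x_at) that can hybridise to several transcripts.

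On log2(intensity + 16), group means of all 10 arrays were fitted with limma 3.58.1 in R 4.3.3 (lmFit, eBayes, two-sided, 6 residual and 2.90 prior degrees of freedom). The probe set of a gene was that with the highest mean on this log2 scale. Each contrast was adjusted over its 22548 p-values (Benjamini-Hochberg, threshold 0.05). Errors of changes are standard errors of that fit, and the number of arrays limits the precision.

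Fasted and fed arrays of equal replicate number deviated together from their group means (correlations of 0.440, 0.675 and 0.573 in mek-1 and 0.352 in mlk-1), so the numbers were taken to pair them. With 2 arrays per group in mlk-1, both pairs of equal number must give the same value, and unequal numbers gave -0.352. The replicate block was an alternative. The others were constants of 1 and 64, median centring, quantile normalization, a filter on the dimmest 30% of probe sets, trended and robust variance, array weights, the compared groups alone, no _s_at or _x_at probe sets, averaging the probe sets of a gene, another assignment of ech genes, and leaving out each array or both mek-1 arrays numbered 3. Chosen after seeing the data were log2 without a constant and the probe set of highest linear mean.

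Values on every array were given for genes past the threshold in any contrast and for acs-2, hacd-1, cpt-1, cpt-2, acdh-1, ech-6, kat-1, acox-1.1, maoc-1, dhs-28 and daf-22. Of each surrounding list, up to 4 genes that passed for the mean fasting effect were named. Other genes with values (other acs, cpt, acdh, ech and acox genes, nhr-49, nhr-80, hlh-30, prx-11 and prx-19) were picked after their values were seen. The genes and lists were chosen with earlier results of these data known. Sequences were not used here. Python 3.11.15 with matplotlib 3.10.9 made the figures.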

Additional observations from a re-analysis of the deposited data

Results flagged for a closer look

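The fasting effect on acdh-1 differed by -5.10 (log2, mek-1 minus mlk-1), because all fasted arrays lay below the fed arrays in mek-1 and above them in mlk-1. The test of that difference did not pass (adjusted p = 0.28, limma, and 0.115 with the replicate block). Leaving out each array in turn moved the difference between -6.09 and -4.11. The cause was not tested.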

How the results depend on the processing

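The number of the 61 genes past the threshold depended on the processing. For the mean fasting effect the count of 7 became 14 with array weights, 19 with the replicate block and 13 without both mek-1 arrays numbered 3, and lay between 4 and 11 when each array was left out in turn. For mek-1 the count of 5 became 9, 14 and 10 under those settings, and 3 to 10 without single arrays. For mlk-1 the count of 2 became 1 with median centring, 5 without the lowest 30% of probe sets, 5 with array weights, 6 with the compared groups alone, 1 without _s_at and _x_at probe sets, 13 with the replicate block, 8 without both mek-1 arrays numbered 3, and 1 to 7 without single arrays. In the strain comparison of fed animals the count of 1 became 0 with the compared groups alone and 2 without both mek-1 arrays numbered 3, and 0 to 2 without single arrays. In fasted animals it became 2 with array weights, and 0 to 2 without single arrays. The difference of fasting effects called 0 genes under every setting run. The cause of these shifts was not tested. Apart from the calls named beside their results, the block changed no call of the mean fasting effect among genes given with values. The median of the mitochondrial genes lay between 0.04 and 0.08 and that of the peroxisomal genes between -0.54 and -0.31 without single arrays. With 2 or 3 arrays per group, and values near 16 compressed toward the floor, small changes of dim genes could not be resolved.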
